A study of Mus musculus with 20 samples.

Results

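The genes of MHC class I antigen presentation were followed across 5 organs of Nsun6-knockout and wild-type mice. The 10 genes are H2-K1, H2-D1, B2m, Tap1, Tap2, Tapbp, Psmb8, Psmb9, Psmb10 and Nlrc5, and they were taken by name as 10 of the 55401 genes in the deposited count table. Poly(A) RNA was sequenced from the spleen, liver, small intestine, heart and kidney of 8-week-old female C57BL/6J mice. The knockout (KO) mice were homozygous for a CRISPR/Cas9 deletion of exons 3 and 4 of Nsun6, an RNA methyltransferase gene, and came from crosses of heterozygous animals, whereas wild-type (WT) mice carried no deletion. Each organ had 2 WT and 2 KO libraries, 20 in all, with 15897446 to 44508197 counts per library (median 28513950). The study calls these biological replicates, but nothing states whether organs came from the same animals, so p-values measure only the spread between these samples. The gene-level Nsun6 count adds the deleted and the remaining exons and so does not check the deletion. Nsun6 was at 9.82 and 6.19 CPM (the count scaled to library size, after TMM) in WT small intestine and at 9.68 and 5.24 CPM in KO small intestine. Over the other 4 organs it lay between 4.36 and 7.23 CPM in WT and between 3.32 and 6.64 CPM in KO.

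Some libraries carried transcripts that set them apart. In the small intestine, replicate 1 of both genotypes was high in distal markers, and replicate 2 of both was high in proximal markers. Fabp6, the ileal bile acid binding protein, was at 6810 CPM in WT replicate 1, 0.238 CPM in WT replicate 2, 6261 CPM in KO replicate 1 and 0.412 CPM in KO replicate 2. Rbp2, a retinol binding protein of the upper intestine, was at 130, 5700, 417 and 6458 CPM in the same order. KO replicate 1 of the small intestine also held 438 CPM of summed heart muscle markers, against 11.2 to 31.3 CPM in the other 3 small intestine libraries. Spleen WT replicate 2 held 2685 CPM of Alb, the hepatocyte albumin gene. In the liver, both WT libraries were above both KO libraries for 5 of 5 heart muscle markers tested (median log2 difference −3.13, KO against WT). These libraries were kept, and ranges with single libraries left out are given in the closing section.

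MHC class I molecules display peptides from inside the cell to CD8 T cells and to natural killer (NK) cells. The heavy chains, encoded here by H2-K1 and H2-D1, pair with the light chain B2m, and peptides cut by the proteasome are carried into the endoplasmic reticulum by the transporter formed of Tap1 and Tap2 and loaded with the help of tapasin, the product of Tapbp. Psmb8, Psmb9 and Psmb10 are catalytic subunits that replace their constitutive counterparts in the immunoproteasome, and Nlrc5 is a transactivator of MHC class I genes. Interferons induce most of these genes, and lymphoid cells express them at high levels.

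Sequences upstream of H2-K1 and B2m, and a short stretch of both heavy chain genes, are shown because these genes give most of the transcripts described here and because their motifs are the classical interferon and NF-kappaB elements of the pathway. All are taken from RefSeq on GRCm38.p6, 5′ to 3′ in the direction of the gene, and capitals mark matches, on either strand, to GGGATTCCC (a kappaB core), TTTCNNTT (part of an interferon-stimulated response element), the same letters followed by TC (the full element, which overlaps the part), TGACGC (a CRE-like element) and CCAAT. The H2-K1 stretch is the 200 bases before the gene, chr17:34000348-34000547 on the minus strand.
H2-K1: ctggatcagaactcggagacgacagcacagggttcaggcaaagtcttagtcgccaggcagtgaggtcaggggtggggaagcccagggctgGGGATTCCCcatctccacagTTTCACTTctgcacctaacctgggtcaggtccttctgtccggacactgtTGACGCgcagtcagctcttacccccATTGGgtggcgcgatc
The B2m stretch is the 200 bases before the gene, chr2:122147486-122147685 on the plus strand.
B2m: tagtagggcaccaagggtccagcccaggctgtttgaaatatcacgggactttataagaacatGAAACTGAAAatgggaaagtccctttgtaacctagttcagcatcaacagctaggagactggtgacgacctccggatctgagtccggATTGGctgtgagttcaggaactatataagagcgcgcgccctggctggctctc
A 30-base stretch with the kappaB core and the partial element stands in both heavy chain genes, at chr17:34000429-34000458 on the minus strand in H2-K1 and at chr17:35262923-35262952 on the plus strand in H2-D1. The H2-K1 copy lies before the annotated gene. The H2-D1 copy lies before the RefSeq start but within an annotated exon of the gene as counted, with all 30 bases in exons.
H2-K1 30-base stretch: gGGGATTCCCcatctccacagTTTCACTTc
H2-D1 30-base stretch: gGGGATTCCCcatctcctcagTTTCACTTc
The pair were identical at 29 of 30 bases, with the one difference A18T, counted from 1 at the 5′ end with the H2-K1 base first. The RefSeq table held windows of 300 bases, from 250 before to 50 after the start, for 8 of the 10 genes. The kappaB core was in the windows of H2-K1 and H2-D1 and in 0.353% of 32851 windows of all genes, and the full interferon element was in that of B2m and in 3.44% of all windows. The partial element was in the windows of H2-K1, H2-D1 and B2m and in 23.9% of all, TGACGC was in those of H2-K1 and H2-D1 and in 7.40% of all, and CCAAT was in 6 of the 8 and in 37.4% of all. TTCNNNGAA, the gamma-activated sequence (GAS), was in the window of Psmb8 and in 8.30% of all. The matches are a description of letters in these windows only.

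Of the 10 genes, 7 lie on chromosome 17 (GRCm38), in the mouse MHC region. Tap1 (17:34187553-34197225, plus strand) and Psmb9 (17:34181987-34187764, minus strand) lie head to head on opposite strands and overlap at their starts in the annotation used for counting, whereas the RefSeq starts are 226 bases apart. Psmb8 (17:34197721-34201454) and Tap2 (17:34203527-34216321) follow on the plus strand. H2-K1 is at 17:33996017-34000347 (minus), H2-D1 at 17:35262730-35267499 (plus) and Tapbp at 17:33915899-33929292 (plus). B2m is at 2:122147686-122153083 (plus), Psmb10 at 8:105935735-105938444 (minus) and Nlrc5 at 8:94434356-94527272 (plus). Exons of Tap1 and Psmb9 share 212 bases, and 29.0% of the exon length of Tapbp, 18.5% of that of Tap2, 14.7% of that of Psmb8 and 0.918% of that of Nlrc5 overlap other genes. Reads in these overlaps cannot be told apart where the counting did not use strand, and for Tapbp, which overlaps Zbtb22 on its own strand, not in either case. H2-K1 and H2-D1 belong to a family of related heavy chain genes, whose transcript sequences were not compared here. The counts of H2-K1, H2-D1 and the other heavy chain genes are uncertain to the extent that reads were split among copies.

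Across organs the levels of most of the 10 genes were higher in the spleen and small intestine than in the kidney and heart, with the liver in between or, for H2-K1 and B2m, as high. Psmb10 and Tap2 were exceptions, with a mean in the heart above that in the liver. Nlrc5 was another, with a mean in the liver (43.6 CPM) above that in the small intestine (31.6 CPM). Comparing genes by CPM per kb of merged exon length, the light chain B2m was the most abundant of the 10 in every organ, from 770.0 ± 289 in kidney to 3983 ± 425 in liver (mean ± SD, n = 4). H2-K1 was second in spleen, at 526 ± 80.5 CPM per kb, and Nlrc5 was the least abundant in kidney, at 0.49 CPM per kb. B2m, H2-K1 and H2-D1 together made 94.4 to 98.5% of the summed CPM per kb of the 10 genes, by organ. All levels are from bulk tissue, in which fewer cells of a type and less RNA per cell cannot be told apart. Values are given in the order WT replicate 1, WT replicate 2, KO replicate 1 and KO replicate 2, with the mean and SD of the 4 libraries of an organ on the scale of CPM.

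**Figure D1:**
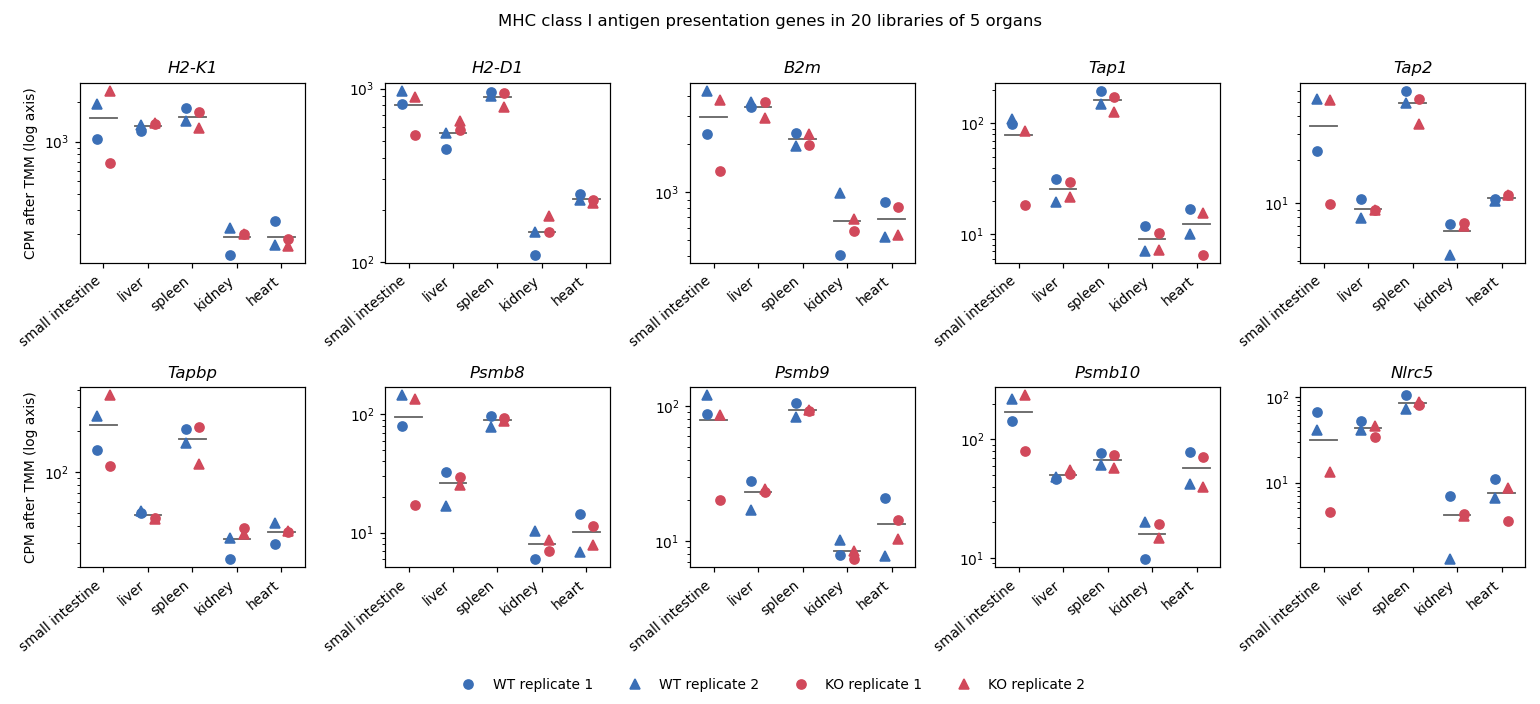
CPM after TMM scaling, on a log axis, of the 10 genes in each of the 20 libraries, by organ and genotype, with a grey line at the mean of the 4 libraries of an organ. Kidney and heart lie lowest for most genes, and the small intestine has the widest spread between libraries, with H2-K1 from 682 to 2426 CPM.

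H2-K1, a classical heavy chain, was at 1786, 1436, 1688 and 1267 CPM in the spleen (1544 ± 237) and at 1040.4, 1938, 682 and 2426 CPM in the small intestine (1522 ± 802). It was at 1193, 1341, 1352 and 1389.8 CPM in the liver (1319 ± 86.7). In the kidney it was at 138, 222, 200.1 and 199 CPM (189.7 ± 36.2), and in the heart at 251, 164, 181 and 162 CPM (189 ± 41.8). The lowest of the spleen, small intestine and liver libraries stood above the highest kidney and heart library, and the difference between liver and kidney was 2.80 on the log2 scale (SE 0.37, adjusted p = 3.53e-05, edgeR quasi-likelihood test with Benjamini-Hochberg adjustment over all 23159 genes tested). On the scale of CPM the libraries of spleen, small intestine and liver overlapped and no step among them was called, nor was that between kidney and heart. On the scale of TPM the spleen, between 1587 and 2425 TPM, stood above the liver, between 688 and 805 TPM, and limma called the difference.

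H2-D1, the other classical heavy chain of this strain, was highest in the spleen at 961, 910.0, 944 and 783 CPM (899 ± 80.4), next in the small intestine at 811, 969.7, 537 and 898 CPM (804 ± 189) and then in the liver at 448, 552, 574 and 649 CPM (556 ± 82.9). In the heart it was at 245, 227, 228 and 220.2 CPM (230.1 ± 10.5), the narrowest spread of this gene, and in the kidney at 109.8, 148, 149.7 and 185 CPM (148 ± 30.6). The step from liver to heart was called, at 1.27 on the log2 scale (SE 0.22, adjusted p = 2.42e-04), where called means an adjusted p under 0.1 and a fold over 2, and was lost with limma on TPM. Heart was above kidney by 0.65 (adjusted p = 0.0272), a step under the fold threshold.

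B2m, the light chain shared by all MHC class I molecules, was highest in the liver on the scale of CPM, at 3414, 3688, 3686 and 2913 CPM (3425 ± 365). On the scale of TPM the order turned, with the spleen between 8350 and 10901 TPM above the liver between 5080 and 7870 TPM. The small intestine libraries ran from 1364 to 4332 CPM, at 2336, 4332, 1364 and 3820.4 CPM (2963 ± 1361). The spleen was at 2351, 1955, 1982 and 2339 CPM (2157 ± 217), the kidney at 406, 995, 570.4 and 677 CPM (662 ± 249) and the heart at 866, 526, 806 and 537 CPM (684 ± 177). Only the step from spleen to heart was called among neighbours in this order (1.66 on the log2 scale, SE 0.38, adjusted p = 0.00206). Set against the sum of H2-K1 and H2-D1 in CPM per kb, B2m stood at a ratio of 2.91 ± 0.546 in the spleen, 4.08 ± 0.557 in the small intestine, 5.13 ± 0.944 in the heart, 6.05 ± 0.949 in the liver and 6.22 ± 1.66 in the kidney (mean ± SD, n = 4).

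Tap1, one subunit of the peptide transporter, had 3 called steps in its order. The spleen was at 197, 151, 175 and 126 CPM (162 ± 30.6), all 4 libraries above the highest of the small intestine. The small intestine was at 98.1, 109, 18.3 and 85.8 CPM (77.9 ± 40.9), with KO replicate 1 far below the other 3 and below all 4 liver libraries. The liver was at 31.4, 19.5, 29.4 and 21.9 CPM (25.6 ± 5.76), the heart at 16.9, 10.1, 6.52 and 15.6 CPM (12.3 ± 4.84) and the kidney at 11.8, 7.08, 10.3 and 7.17 CPM (9.09 ± 2.34). Spleen over small intestine (1.14 on the log2 scale, adjusted p = 0.0299), small intestine over liver (1.52, adjusted p = 0.00696) and liver over heart (1.06, adjusted p = 0.0456) were called by edgeR, and heart against kidney was not (adjusted p = 0.444). The call of spleen over small intestine was lost with WT libraries alone and without small intestine KO replicate 1, and that of small intestine over liver without small intestine KO replicate 2. The call of liver over heart was lost with upper quartile factors, with WT libraries alone, with limma on TPM and without any one of liver WT replicate 1, liver KO replicate 1, heart WT replicate 2 or heart KO replicate 1.

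Tap2, the other subunit of the transporter, was at 59.9, 49, 52.5 and 35.4 CPM in the spleen (49.2 ± 10.3) and at 22.9, 52.7, 9.90 and 51.9 CPM in the small intestine (34.4 ± 21.4). In the heart it was at 10.6, 10.3, 11.4 and 11.4 CPM (10.9 ± 0.569), in the liver at 10.7, 7.90, 9.02 and 8.91 CPM (9.12 ± 1.14) and in the kidney at 7.14, 4.39, 7.25 and 6.92 CPM (6.43 ± 1.37). The only called step was from small intestine to heart (1.65 on the log2 scale, adjusted p = 0.00317, lost without small intestine KO replicate 2), and the steps from heart to liver (adjusted p = 0.658) and from liver to kidney (adjusted p = 0.363) were not, although every heart and liver library was above every kidney library. The ratio of Tap1 to Tap2 in CPM per kb was 2.29 ± 0.137 in the spleen, 1.92 ± 0.271 in the liver and 1.70 ± 0.845 in the small intestine, against 0.988 ± 0.194 in the kidney and 0.780 ± 0.309 in the heart.

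Tapbp, which bridges the transporter and the heavy chain, was at 143, 258, 109 and 366 CPM in the small intestine (219 ± 117) and at 206, 164, 212 and 115 CPM in the spleen (174 ± 44.9). In the liver it was at 50.1, 51.2, 46.0 and 44.9 CPM (48.0 ± 3.07), in the heart at 29.3, 41.9, 36.1 and 36.5 CPM (36.0 ± 5.18) and in the kidney at 22.8, 32.7, 38.6 and 34.7 CPM (32.2 ± 6.69). The spleen stood above the liver by 1.86 on the log2 scale (SE 0.33, adjusted p = 2.80e-04), and every library of the small intestine and spleen was above every library of the other organs.

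Psmb8, Psmb9 and Psmb10 supply the 3 catalytic subunits of the immunoproteasome. Psmb8 was at 80.4, 145, 17.2 and 136 CPM in the small intestine (94.8 ± 59.1), at 96.8, 77.8, 93.9 and 87.2 CPM in the spleen (89.0 ± 8.43) and at 32.7, 16.8, 29.8 and 25.4 CPM in the liver (26.2 ± 6.93). It was at 14.4, 6.82, 11.4 and 7.92 CPM in the heart (10.1 ± 3.43) and at 5.96, 10.3, 6.94 and 8.60 CPM in the kidney (7.94 ± 1.89). The steps from spleen to liver (1.77 on the log2 scale, adjusted p = 0.00667) and from liver to heart (1.38, adjusted p = 0.0302) were called, the latter not with WT libraries alone or with limma on TPM. Small intestine KO replicate 1 was the one library of that organ at the level of the liver.

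Psmb9 was at 106, 82.9, 91.5 and 93.9 CPM in the spleen (93.6 ± 9.61), at 86.9, 121, 20.3 and 86.0 CPM in the small intestine (78.4 ± 42.0) and at 27.8, 16.9, 22.99 and 24.5 CPM in the liver (23.04 ± 4.54). It was at 20.8, 7.70, 14.4 and 10.4 CPM in the heart (13.3 ± 5.68) and at 7.81, 10.2, 7.32 and 8.42 CPM in the kidney (8.44 ± 1.27). Only the step from small intestine to liver was called (1.69 on the log2 scale, adjusted p = 0.00232), and liver and heart overlapped, with an adjusted p of 0.102. Psmb8 and Psmb9 had a Pearson's r of 0.99 across the 20 libraries and of 0.96 for their deviations from the organ means, a description only, since the points share library and depth.

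Psmb10 differed from the other 2 subunits in its order. It was at 142, 219, 80.3 and 237 CPM in the small intestine (169 ± 72.2), at 77.3, 60.8, 74.3 and 57.0 CPM in the spleen (67.4 ± 9.97) and at 78.0, 42.1, 70.6 and 40.1 CPM in the heart (57.7 ± 19.4). It was at 46.3, 48.4, 51.0 and 55.2 CPM in the liver (50.2 ± 3.85) and at 9.79, 19.99, 19.5 and 14.8 CPM in the kidney (16.02 ± 4.77). Small intestine over spleen (1.33 on the log2 scale, SE 0.34, adjusted p = 0.00489) and liver over kidney (1.65, SE 0.35, adjusted p = 0.00163) were called. Both calls were lost with limma on TPM, and that of small intestine over spleen also without small intestine KO replicate 2. The steps from spleen to heart (adjusted p = 0.606) and from heart to liver (adjusted p = 0.693) were not called, although every spleen library was above every liver library. Every heart library was above every kidney library, a difference of 1.85 on the log2 scale that was called.

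The immunoproteasome share, the summed TPM (transcript level scaled for length and library size) of Psmb8, Psmb9 and Psmb10 as a percentage of their sum with the constitutive subunits Psmb5, Psmb6 and Psmb7, was given as a description. It was 52.0, 44.3, 45.8 and 46.2% in the spleen (47.1% ± 3.39, SD, n = 4) and 49.6, 52.9, 31.1 and 56.0% in the small intestine (47.4% ± 11.2). It was 18.2, 14.4, 14.05 and 12.7% in the liver (14.8% ± 2.35), 13, 11.5, 10.8 and 12.04% in the heart (11.8% ± 0.916) and 5.93, 5.08, 5.96 and 5.37% in the kidney (5.58% ± 0.432). No library of the spleen or small intestine was as low as any of the other 3 organs, and no kidney library was as high as any heart library. By pair, on the scale of TPM, the share of Psmb10 with Psmb7 was the highest in every organ. It ran from 20.1% ± 3.45 in the kidney to 83.9% ± 6.63 in the small intestine. On the scale of CPM this order turned in the spleen. Psmb8 averaged 89.0 CPM there with Psmb5 at 38.6 CPM, and Psmb10 averaged 67.4 CPM with Psmb7 at 48.0 CPM. The share of Psmb8 with Psmb5 ran from 2.35% ± 0.257 in the kidney to 38.2% ± 4.57 in the spleen, and that of Psmb9 with Psmb6 from 2.28% ± 0.553 in the kidney to 35.9% ± 2.09 in the spleen. The constitutive subunits were not fixed across organs: Psmb7 averaged 48.0 CPM in the spleen, 56.8 CPM in the small intestine, 133 CPM in the liver and in the kidney and 231 CPM in the heart.

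**Figure D2:**
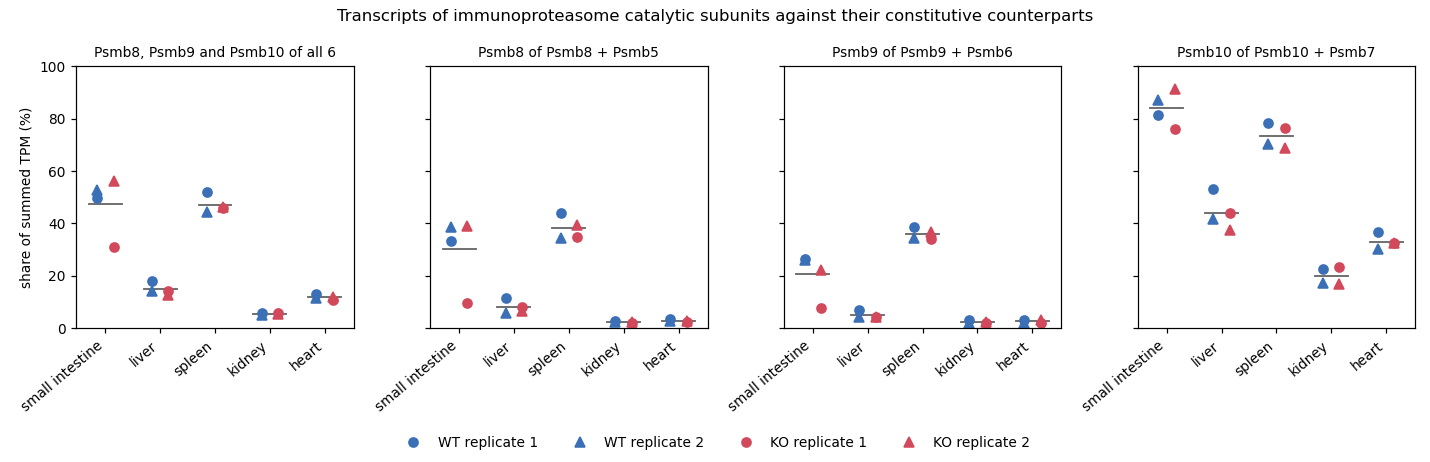
Share, in percent of summed TPM, of Psmb8, Psmb9 and Psmb10 together and of each one with its constitutive counterpart, for each of the 20 libraries by organ and genotype, with a grey line at the mean of an organ. The spleen and the small intestine stand near 47% for all 3 together and the kidney near 5.58%, and the small intestine KO replicate 1 library is the lowest of its organ at 31.1%.

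Nlrc5, the transactivator, was at 105, 71.7, 81.1 and 86.2 CPM in the spleen (86.0 ± 14.05) and at 52.9, 41.1, 34.2 and 46.1 CPM in the liver (43.6 ± 7.87). The small intestine was at 66.6, 41.6, 4.50 and 13.5 CPM (31.6 ± 28.2), so that each KO library was lower than each WT library there. The heart was at 11.1, 6.71, 3.60 and 8.58 CPM (7.50 ± 3.17) and the kidney at 6.94, 1.28, 4.30 and 4.14 CPM (4.16 ± 2.31). Spleen over liver was 0.99 on the log2 scale (adjusted p = 0.0754) and liver over small intestine 0.98 (adjusted p = 0.0862), both under the fold threshold. The call for liver against spleen depended on the setting, since Nlrc5 passed with upper quartile factors, with at least 10 counts in every library, with limma on TPM and without any one of 10 of the 20 libraries. For liver against small intestine, Nlrc5 passed without small intestine WT replicate 1 and, in a separate fit, without small intestine KO replicate 2. With WT libraries alone the small intestine stood above the liver (WT means of 54.1 and 47.0 CPM), so that the order of these neighbours turned. Small intestine over heart was called (1.57, adjusted p = 0.00946).

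The organs were then compared in pairs, averaging both genotypes on the log2 scale. All 10 genes were called higher in the spleen than in the kidney, with a median log2 difference of 2.98 (all genes tested 0.00), where 24.1% of all genes were called in that direction. Nlrc5 was 20.5-fold (log2 4.36, SE 0.51) and Tap1 17.8-fold (log2 4.15, SE 0.46) higher in the spleen than in the kidney. In the same way 10 of 10 were called higher in the small intestine than in the kidney (median 2.89, 23.2% of all genes called) and 10 of 10 higher than in the heart (median 2.30, 27.7% called). Spleen over heart gave 9 of 10 (median 2.55, 27.5% called), the exception being Psmb10.

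The liver lay between. Against the kidney 8 of 10 were called higher in the liver (median 1.69, 13.6% of all genes called), not Tap2 and Tapbp. Against the heart 6 were called higher in the liver (median 1.16, 19.8% called): H2-K1, H2-D1, B2m, Tap1, Psmb8 and Nlrc5. Against the spleen the 5 genes Tap1, Tap2, Tapbp, Psmb8 and Psmb9 were called lower in the liver and none higher (median −1.38, 29.7% of all genes called lower). Against the small intestine 6 were lower in the liver, counted as higher in the small intestine (median 1.61, 27% called). Small intestine and spleen differed in both directions: Psmb10 was called higher in the small intestine (24.1% of all genes called) and Tap1 and Nlrc5 lower (25.4% called), with a median of −0.09 (all genes −0.10). Kidney against heart gave Psmb10 alone, lower in the kidney by 1.85 on the log2 scale (18.1% of all genes called lower). On the scale of TPM, the liver moved down relative to the other organs by up to 1.23 on the log2 scale, and the signs of B2m, Tapbp, Psmb8 and Tap2 turned in some uncalled pairs. With limma on TPM, 9 members were called for liver against spleen, 4 for liver against kidney (not Tap1, Psmb8, Psmb9 and Psmb10) and 3 for liver against heart (not H2-D1, Tap1 and Psmb8). For small intestine against spleen, WT libraries alone gave 1 call in place of 3 (not Tap1 and Nlrc5), and leaving out small intestine KO replicate 2 gave 5, among them Psmb8, then lower in the small intestine, whereas with all libraries its difference was 0.06 and not called. WT libraries alone gave 4 for liver against heart (not Tap1 and Psmb8).

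The 10 genes most like the members were found by Pearson's r between log2 CPM and the mean of the 10 scaled members over the 20 libraries, which share library and depth. They were Cd200r4 (0.98), Gm12250 (0.96), Zc3hav1 (0.95), Trim12a (0.95), Klra17 (0.95), Trim12c (0.94), Fasl (0.94), Tinf2 (0.94), Cd7 (0.93) and Ctss (0.93). The median r of other lists was 0.80 for T and NK cell markers, 0.75 for leukocyte markers, 0.67 for B cell markers, 0.61 for interferon-stimulated genes and −0.65 for Psmb5, Psmb6 and Psmb7. Macrophage and dendritic cell markers had a median r of 0.34. Other MHC class I heavy chains had a median r of 0.48 and the peptide supply and loading partners of 0.06. Log2 CPM was not centred by organ, so every r here includes the differences between organs.

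Knockout and wild type were next compared within each organ, the question for which the study was built. All 10 genes passed the filter on low counts in every organ. None of the 10 genes was called in any organ by the quasi-likelihood test of edgeR, with p-values adjusted by Benjamini-Hochberg. At an unadjusted p under 0.05 there was 1, Nlrc5 in the small intestine, and 0 in the other organs. DESeq2 called 1 (Nlrc5 in the small intestine, where it called 61 of 17680 genes in all) and limma 0. Over all genes tested, edgeR called 0.223% in the spleen and 0.0509% in the liver, against 0% for each of small intestine, kidney and heart. With 2 libraries against 2, an exact permutation test of one gene could not go below p = 0.333.

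**Figure D3:**
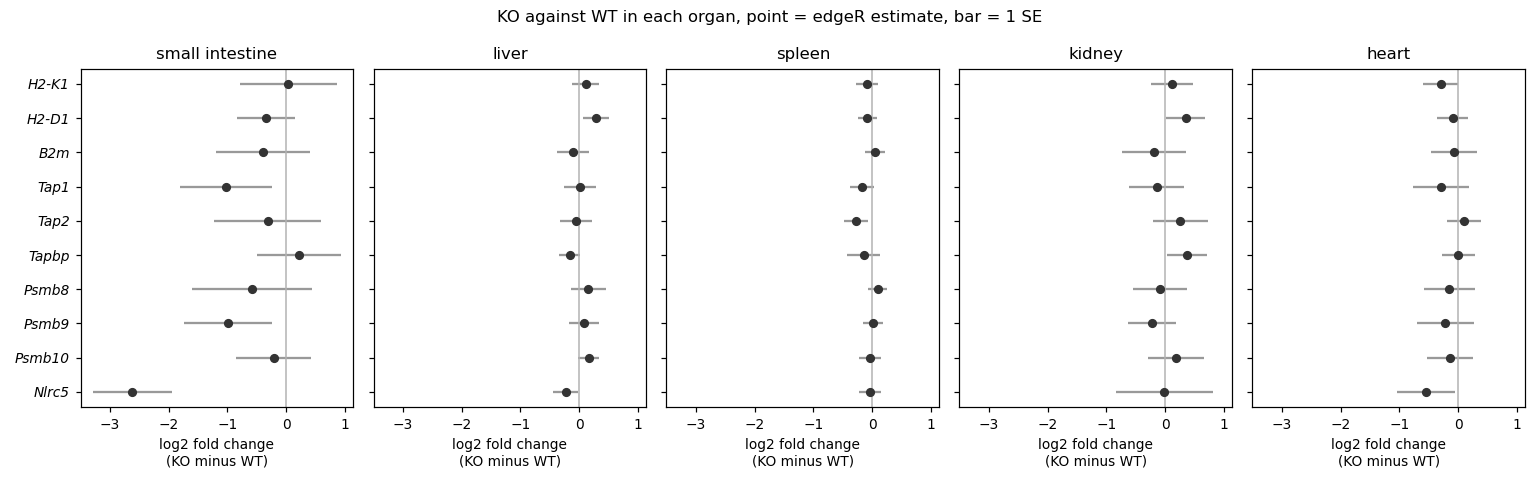
Log2 fold change, KO against WT, of the 10 genes in each organ from edgeR, with bars of 1 SE, from 2 WT and 2 KO libraries per organ. Nlrc5 in the small intestine stands farthest from 0 at −2.62, and the small intestine has the widest bars.

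In the small intestine the lowest value was that of Nlrc5, −2.62 on the log2 scale (SE 0.67, unadjusted p = 0.0143, edgeR quasi-likelihood adjusted p = 0.9999), with raw counts of 2293 and 1049 in WT and 124 and 327 in KO. The highest was that of Tapbp at 0.22 (SE 0.72). The median over the 10 genes was −0.37 (0.00 over all genes tested), and 8 of 10 values were below 0. Without KO replicate 1 the median was 0.22, and without KO replicate 2 it was −1.71. In these fits the segment markers were no longer balanced between genotypes, so segment and genotype cannot be told apart in them. A fit with replicate number as a block is given in the closing section. Both KO libraries were below both WT libraries for Tap1, Psmb9 and Nlrc5, 3 of 10, where this held for 10% of all genes, and above for 0, where this held for 15.1%.

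In the liver the values ran from −0.23 (SE 0.21) for Nlrc5 to 0.28 (SE 0.22) for H2-D1, with a median of 0.05 (all genes 0.00) that became −0.17 without WT replicate 2. Both KO libraries were above both WT libraries for H2-K1, H2-D1 and Psmb10, 3 of 10 (17.1% of all genes), and below for Tapbp (16.1%). In the spleen the values ran from −0.27 (SE 0.21) for Tap2 to 0.09 (SE 0.16) for Psmb8, with a median of −0.06 (all genes 0.01) that ran from −0.23 without KO replicate 1 to 0.08 without WT replicate 1, and the genotypes overlapped for all 10 genes (14.7% of all genes had both KO above, 16.9% both below).

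In the kidney they ran from −0.22 (SE 0.40) for Psmb9 to 0.37 (SE 0.34) for Tapbp, with a median of 0.05 (all genes −0.03) that was 0.43 without WT replicate 2. Without WT replicate 1, Nlrc5 was called in the kidney (adjusted p = 0.0252, edgeR), in a fit that called 2938 of 18244 genes. WT replicate 1 had 6.94 CPM of Nlrc5 and WT replicate 2 had 1.28 CPM, against 4.30 and 4.14 CPM in KO. The call without WT replicate 1 was therefore of a higher level in KO. H2-D1 and Tapbp had both KO libraries above both WT (11.7% of all genes), and no member had both below (9.30%). In the heart the lowest was −0.54 (SE 0.49) for Nlrc5 and the highest 0.11 (SE 0.29) for Tap2, with a median of −0.14 (all genes −0.01) that was 0.15 when WT replicate 1 was left out and −0.54 when WT replicate 2 was. Tap2 had both KO libraries above both WT, at 11.4 and 11.4 CPM against 10.6 and 10.3 CPM (8.59% of all genes), and no member had both below (8.65%). In the heart 8 of 10 members lay below 0. T and NK cell markers summed to 8.08 and 21.4 CPM in WT and to 3.97 and 5.17 CPM in KO, with 8 of 8 tested below 0 (median −1.91, 2 at an unadjusted p under 0.05, 0 called by edgeR), and Gzma, the most abundant of them over all organs but not in every heart library, was at 1.49, 1.13, 0.750 and 0.735 CPM. Cd8b1 and Prf1 were at 0 in WT replicate 1, and Cd3d, Cd3e, Prf1 and Nkg7 in KO replicate 1. B cell markers summed to 10.9, 37.8, 10.3 and 8.84 CPM, with 7 of 7 below 0 (median −2.03, 2 at an unadjusted p under 0.05, 0 called). Both sums were highest in WT replicate 2, where the median deviation of the members from the heart mean was −0.18 on the log2 scale, against 0.46 in WT replicate 1. The part of these cells in the heart values of the members was not tested.

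An effect common to the organs was also tested, with organ as a covariate. None of the 10 genes was called (0 at an unadjusted p under 0.05), with 0.00432% of all genes called. The median was −0.08 (all genes 0.01), 8 of 10 lay below 0, and the lowest was Nlrc5 at −0.64 (SE 0.36, unadjusted p = 0.0899). For a difference between organs in the effect of genotype, edgeR's interaction test called none of the 10 (0 at an unadjusted p under 0.05), with 0% of all genes called. Nlrc5 had an unadjusted p of 0.0667 in that test. Its effect in the small intestine was 2.39 on the log2 scale below the mean of its effects in the other 4 organs (adjusted p = 0.483).

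The coefficient of variation over the 4 libraries of an organ was highest in the small intestine for all 10 members, at 89.4% for Nlrc5 against 55.5% in the kidney, the next highest. Replicate 2, with proximal markers, was above replicate 1 in 9 of 10 members in WT (all but Nlrc5) and in 10 of 10 in KO. Within replicate 1, the KO library was below the WT library for 10 of 10, and within replicate 2 for 7 of 10 (not H2-K1, Tapbp and Psmb10). These are 1 library against 1, without a replicate check. No share over all genes was taken for these counts, so they do not set the members apart from other genes. KO replicate 1 had a median deviation of −1.24 on the log2 scale from the mean of the small intestine libraries over the 10 genes.

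**Figure D4:**
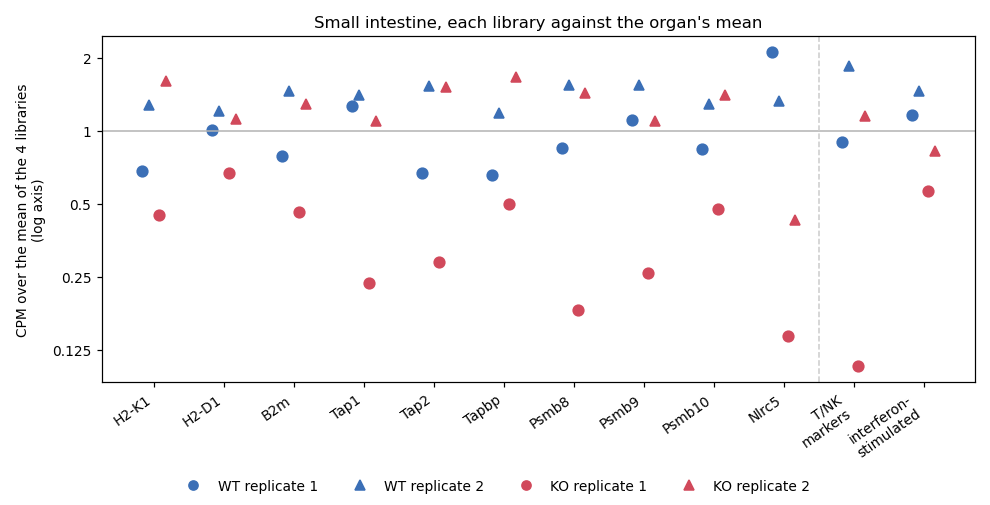
CPM of each of the 10 genes, and the summed CPM of T and NK cell markers and of interferon-stimulated genes, in the 4 small intestine libraries, as a ratio to the mean of the 4 on a log axis. KO replicate 1 lies below the mean for all of them, and the T and NK cell markers span the widest range, from 57.0 to 987 CPM.

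Markers of other cells also differed between these libraries. The summed T and NK cell markers were at 477 and 987 CPM in WT and at 57.0 and 613 CPM in KO, 14 of 14 tested had a fold change below 0 (median −0.91, 0 called), and Gzma, a cytotoxic granule protease and their most abundant gene, was at 286, 653, 29.8 and 357 CPM. Prf1, the perforin gene, was at 0 in KO replicate 1. The summed leukocyte markers were at 630.0, 330.3, 166.6 and 328.4 CPM, with Cd52, the most abundant by TPM, at 91.6, 50.5, 6.74 and 39.0 CPM and Ptprc, the common leukocyte antigen, at 193, 112, 76.4 and 98.5 CPM, and 9 of 10 lay below 0 (0 called). The summed B cell markers were at 373, 9.84, 2.36 and 56.8 CPM, led by Cd79b at 64.3, 6.74, 0.762 and 18.6 CPM, with Cd79a at 0 in KO replicate 1, and 7 of 7 lay below 0 (median −3.35, 0 called). Endothelial markers lay the other way, 9 of 9 above 0 (median 1.17, 0 called), with sums of 25.6, 35.4, 24.7 and 97.8 CPM. Macrophage and dendritic cell markers went both ways, with 5 above 0 and 6 below (median −0.03, 0 called). Enterocyte markers summed to 17629, 18103, 21914 and 17375 CPM, a narrower range. The part of these cells in the values of Nlrc5, Tap1 and Psmb9 was not tested.

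Interferon-stimulated genes lay in the same direction as the members in the small intestine, with 23 of 24 below 0 and a median of −1.03, against −0.37 for the members, but 0 were called by edgeR (6 at an unadjusted p under 0.05). Their sums were 1343, 1678, 649 and 949.8 CPM, and their most abundant gene was Bst2, an antiviral membrane protein. In the spleen 19 of 24 lay above 0 (median 0.22), and 2 were called, Rsad2 (log2 fold change 1.36, SE 0.15, adjusted p = 0.0656) and Isg15 (1.27, SE 0.15, adjusted p = 0.0711), where none of the 10 MHC class I genes was. Both calls were lost with limma on TPM, at an adjusted p under 0.05 and in one fit of all 20 libraries. Isg15, a ubiquitin-like interferon-induced modifier, was at 48.6 and 51.3 CPM in WT spleen and at 123 and 112 CPM in KO spleen, and its genotypes did not overlap. In the liver 20 of 24 of the list lay above 0 (median 0.28). Isg15 was at 28.2 and 27.1 CPM in WT liver and at 58.9 and 61.0 CPM in KO liver (1.11, SE 0.18, edgeR adjusted p = 0.223, not called by edgeR). The study, with DESeq2 at the same thresholds, reported Isg15 as raised in KO liver as well as in KO spleen. In the small intestine it was at 37.3, 73.3, 16.5 and 35.8 CPM, with both KO libraries below both WT.

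The spleen also differed by genotype in erythroid markers, whose sum was 12488 and 16872 CPM in WT and 28449 and 32144 CPM in KO, with 13 of 13 above 0 and Slc4a1, Epb42 and Alas2 among those called. The erythroid calls were also lost with limma on TPM, at an adjusted p under 0.05 and in one fit of all 20 libraries. B cell markers lay below 0 for 7 of 7 (median −0.20), and endothelial markers for 9 of 9 (median −0.35). Hepatocyte markers lay below 0 for 10 of 10 (median −3.38), but both KO libraries were below both WT libraries for 0 of 10. Alb ran from 3.68 to 2685 CPM over the spleen libraries, highest in WT replicate 2, with a KO mean of 115 CPM. T and NK cell markers lay above 0 for 11 of 15 (median 0.05). In these 4 lists edgeR called 0. The part of any of these cells in the spleen values of the members was not tested.

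Among other heavy chains, peptide supply and loading partners, constitutive subunits and regulators of MHC class I genes, edgeR called 0 in any organ, with 8 values at an unadjusted p under 0.05 over the 5 organs. Of all genes tested, 422 of 17680 were under that p in the small intestine, 739 of 15729 in the liver, 969 of 18834 in the spleen, 112 of 17550 in the kidney and 117 of 16632 in the heart. H2-Q2, the heavy chain gene with the highest mean TPM over all libraries, was at 421, 1747, 294 and 1689 CPM in the small intestine and at no more than 2.65 CPM in any library of the other organs, so that in the liver, where these heavy chains summed to between 4076 and 4863 CPM, other genes of the list made nearly all of the sum. The most abundant of the partners, constitutive subunits and regulators were Pdia3, Psmb6 and Ifngr2. In the small intestine 12 of 18 other MHC class I heavy chains lay below 0 (median −0.45), as did 10 of 14 peptide supply and loading partners (median −0.23) and 18 of 25 regulators of MHC class I genes (median −0.20). The constitutive subunits Psmb5, Psmb6 and Psmb7 had a median of −0.15 there, and in the liver all 3 lay above 0 (median 0.50, 2 at an unadjusted p under 0.05). Other heavy chains had a median of 0.13 in the liver, where 10 of 16 lay above 0, of 0.00 in the spleen, of −0.16 in the kidney and of −0.18 in the heart. Irf1, an interferon regulatory factor that acts on MHC class I genes, was at 269 and 209 CPM in WT small intestine and at 156 and 253 CPM in KO, and its genotypes overlapped.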

How the data were processed

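Messenger RNA libraries of 5 organs from WT and KO mice were analysed from the deposited table of read counts per gene, with merged exon lengths in base pairs as deposited by the authors. Per the labels and the study's methods, the authors trimmed reads with cutadapt, aligned them with HISAT2 2.1.0 (build mm10 in the labels, although the methods name a human build) and counted them with featureCounts 2.0.1 on a GRCm38 annotation. The methods state strand-specific counting, but the command stored in the table sets no strand option. Counts were tested with edgeR 4.0.16 in R 4.3.3 (TMM, filterByExpr, quasi-likelihood test, Benjamini-Hochberg over all genes tested). The threshold was an adjusted p under 0.1 and a fold over 2. Genotypes were compared within each organ, and organs in one fit of all 20 libraries. CPM used TMM factors over all libraries. CPM per kb and TPM used the deposited lengths. Each SE was the log2 fold change over the square root of F. The fits were tested on simulated data. No 2 libraries of a group held identical counts, and all differed by more than sampling noise.

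All 10 members are named. Single fold changes are given for the lowest and highest member of each organ and for members with an unadjusted p under 0.05 and genotypes that do not overlap. Of other lists shown, most called genes and most of the most abundant genes are named, with Isg15, Nsun6 and the 10 genes of highest r; some listed genes are not reported here. Genes listed at 0, Ptprc and Irf1 were named after their values were seen. The members and lists were chosen with earlier results of these data known. DESeq2 1.42.0, limma 3.58.1 on log2(TPM + 0.1), other size factors, filters, thresholds, a replicate block and leaving out each replicate were alternatives. Counts limit precision for genes of few reads.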

Additional observations from a re-analysis of the deposited data

Results flagged for a closer look

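Tapbp was picked out because its KO libraries lay on opposite sides of the WT libraries in 2 organs. Its log2 fold change, KO against WT, was 0.37 in the kidney, where both KO libraries (38.6 and 34.7 CPM) were above both WT libraries (22.8 and 32.7 CPM). It was −0.16 in the liver, where both KO libraries (46.0 and 44.9 CPM) were below both WT libraries (50.1 and 51.2 CPM). Neither was called, and the difference between these 2 organs was not tested singly. The interaction over all organs gave an unadjusted p of 0.873 for Tapbp.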

How the results depend on the processing

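Across the alternatives no organ difference of a member that was called with all libraries turned sign. With DESeq2 in the small intestine, 1 member was called, Nlrc5 (−2.63, adjusted p = 0.0889), among 61 genes where edgeR called 0. Over all its alternatives Nlrc5 stayed below 0 there, with adjusted p from 0.0889 to 0.9999. With limma on TPM, the liver median of the members was −0.11, Psmb8 in the spleen was −0.056, and members called were 9 for liver against spleen, 4 for liver against kidney and 3 for liver against heart. Without the fold threshold kidney against heart gave 2 members (8 in place of 6 for small intestine against liver, 7 in place of 5 for liver against spleen), WT libraries alone gave 1 for small intestine against spleen, 4 for liver against heart and 7 for liver against kidney, and no filter on low counts gave 1 for the interaction (Nlrc5, adjusted p = 0.00533, among 973 genes where 0 were called with the filter). On CPM or raw counts the immunoproteasome share was 18.5% in the liver, 59.2% in the spleen and 7.42% in the kidney. Spearman's rho kept 5 of the 10 most alike genes and WT libraries alone 3. The cause was not tested for any of these.

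Leaving out 1 library moved the median member log2 fold change from −1.71 to 0.22 for small intestine (−1.71 without KO replicate 2), from −0.54 to 0.15 for heart, from −0.0035 to 0.43 for kidney, from −0.17 to 0.12 for liver and from −0.23 to 0.08 for spleen. Tapbp in the small intestine ran from −0.97 to 0.85 (−0.15 without WT replicate 1, −0.97 without KO replicate 2), Psmb8 in the spleen from −0.030 to 0.22 (−0.030 without WT replicate 2, the library with Alb) and Nlrc5 in the small intestine from −3.68 to −2.02. Members called ran from 0 to 1 in the kidney (Nlrc5 without WT replicate 1, adjusted p = 0.0252, in a fit that called 2938 of 18244 genes), from 2 to 5 for small intestine against spleen (5 without small intestine KO replicate 2) and from 1 to 2 for kidney against heart (2 without kidney WT replicate 1). That kidney call of Nlrc5 was of a higher level in KO. The other 8 pair counts moved by at most 1, although the genes called could differ by more. Without small intestine KO replicate 2, small intestine against liver lost Tap1 and Psmb8 and gained Nlrc5. A lone library was assumed to vary like the others. In the small intestine, leaving out a library also left the segment markers unbalanced between genotypes. Over all genes these fits called 0 in the small intestine, 2 to 205 in the liver, 0 to 371 in the spleen, 1 to 2938 in the kidney and 0 to 22 in the heart.

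With no library left out, genes called over the whole table moved most in the spleen and liver. In the liver they were 8 by edgeR, 56 by DESeq2, 122 with no filter and 29 by limma. The block gave 20 there and one fit of all 20 libraries gave 0. In the same order the spleen gave 42, 219, 313, 0, 43 and 0. In the heart they were 0 by edgeR, 2 by DESeq2, 13 with no filter and 6 with the block. The labels tie a replicate number to no animal or batch, although in the small intestine it followed the segment markers. Same-numbered differences correlated at 0.48 for small intestine, 0.25 for heart, 0.07 for kidney, 0.03 for liver and 0.01 for spleen. With the replicate block, Nlrc5 in the small intestine was −2.78 (adjusted p = 0.828) and the median of the members −0.58, and no call of a member in a genotype comparison changed.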
